A study of Mus musculus with 6 samples.

Results

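Growth hormone and the insulin-like growth factors act on fat through a small set of ligands, receptors and binding proteins, and 10 genes of this axis were followed in the RNA-seq of inguinal white adipose tissue (iWAT), a subcutaneous fat depot. They are *Ghr*, *Igf1*, *Igf2*, *Igf1r*, *Igfbp2*, *Igfbp3*, *Igfbp4*, *Igfbp5*, *Igfbp6* and *Igfbp7*, chosen by gene symbol among the 55573 genes listed, and all 10 were found. The libraries came from 3 mutant and 3 Wt male mice of the C57BL/6NTac strain, 3 months old, untreated and fed regular chow, with 1 library per mouse. The mutant mice carried a homozygous global knock-in in *Thra* that gives the THRA K283Q/K288R receptor, made so that SUMO, a small protein tag, is attached to it less. The Wt mice were bred in-house on the same background. As the allele was global, every cell type of the depot carried it. The comparison asks what the mutation changes in fat.

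Growth hormone binds its receptor GHR, which works through the kinase JAK2 and the transcription factors STAT5A and STAT5B. STAT5 induces *Igf1* and also *Cish* and *Socs2*, whose products act back on the receptor, and in fat growth hormone is best known for promoting lipolysis. IGF1 and IGF2 signal through IGF1R, while the binding proteins hold the ligands in blood and tissue fluid and decide how much of them reaches the receptor.

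Values are normalized CPM, that is, reads on a gene scaled to the depth of the library, with a further factor for each mouse. The mice had 19607423 to 24228381 reads on genes, and 3 reads, taken as the floor of detection, corresponded to 0.126 to 0.157 normalized CPM (counting error only). Over all 16868 genes tested, limma called 1368 (8.11%) at an adjusted p under 0.05, 928 (5.5%) higher and 440 (2.61%) lower in the mutant, with a median log2 fold change of -0.05. With any 1 mouse left out, 61 to 265 genes were called lower and 493 to 740 higher. *Thra* itself was at 147, 128 and 117 in the Wt group, against 170, 140 and 137 in the mutant group (log2 fold change 0.19, adjusted p = 0.404, and 0.45, adjusted p = 0.0822, with an offset for GC content, limma), and gene-level values cannot check a change of single bases. The 8 adipocyte markers summed to 24063 to 35328 in Wt and 24406 to 37761 in mutant mice, which overlapped, and none of them was at 0 in any mouse. Mutant mouse 1 stood apart in having almost no lymphocyte transcripts: 7 B and T cell markers summed to 5.35 in it and to 307 to 725 in the other 5 mice. Results below are given without this mouse where leaving it out changed a call. In a whole depot, fewer cells of a type and less RNA per cell cannot be told apart.

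Of the 10 genes, *Igfbp2* was the one that passed the test between the genotypes after adjustment over all genes. It was 10.7-fold higher in the mutant, from a level near the floor. The other 9 did not pass the test, although *Igfbp3* was higher and *Igf2* lower in all 3 mutant mice than in any Wt mouse. Thus 1 of 10 genes was called, against 8.11% of all genes tested, and 2 of 10 had an unadjusted p under 0.05, against 24.2% of all genes. The fitted difference was above 0 for 7 genes and below 0 for 3, against 7332 and 9536 of all genes tested. The median log2 fold change was 0.13 over the 10 genes, against -0.05 over all genes. All 6 binding proteins were among the 7, but only *Igfbp2* was called, and the sign for *Igfbp7* turned when some mice were left out. The genotypes did not overlap for 3 of the 10 genes, against 30.6% of all genes tested.

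**Figure D1:**
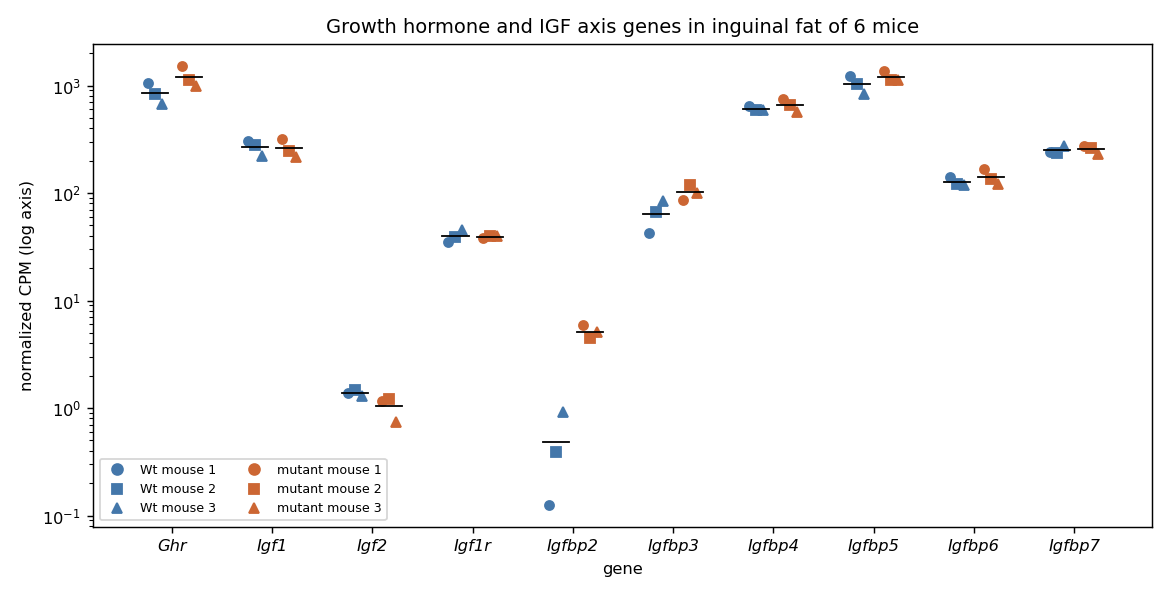
Normalized CPM (log axis) of the 10 growth hormone and IGF genes in each of the 6 mice. Each symbol is a mouse (circle, square and triangle for mice 1, 2 and 3; Wt in blue, mutant in orange) and each black line a mean of 3 mice; *Igfbp2* shows the widest gap, from at most 0.926 in Wt to at least 4.44 in mutant mice.

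To compare genes with each other, levels were divided by the length of exon sequence in kb. *Igfbp7* (209 per kb, mean of the 6 mice), *Igfbp5* (187), *Igfbp4* (144), *Igfbp6* (121) and *Ghr* (114) formed an upper group. *Igf1* (26.8) and *Igfbp3* (26.7) followed, then *Igf1r* (2.36), *Igfbp2* (1.52) and *Igf2* (0.211). Neighbours in this order overlapped over the 6 mice, except that every mouse had more *Ghr* per kb than any mouse had *Igf1*, and more *Igfbp3* per kb than any mouse had *Igf1r*. By normalized CPM, *Igfbp5* ranked 70 and *Ghr* 79 among the 16868 genes tested, so both are among the genes with the most reads. That rank is not divided by exon length and so favours long genes, and no order per kb was made over all genes. *Igf2*, at the other end, ranked 14534.

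*Ghr* (ENSMUSG00000055737, chromosome 15, 3317760 to 3583492, minus strand, mm10/GRCm38) encodes the growth hormone receptor, the entry point of the axis. It was at 1054, 838 and 677 normalized CPM in the Wt group (mice 1, 2 and 3 in this order throughout), against 1522, 1115 and 988 in the mutant group. The groups overlapped, because Wt mouse 1 was above mutant mouse 3, and within each genotype the mice spread by about 1.5-fold. The means were 856 ± 190 (SD, n = 3) and 1209 ± 279 (SD, n = 3). The log2 fold change of 0.50 (SE, the standard error, 0.24, 95% interval -0.07 to 1.06) did not pass the test (adjusted p = 0.257, limma).

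*Igf1* (ENSMUSG00000020053, chromosome 10, 87858265 to 87937042, plus strand) encodes the main ligand and is a classical target of growth hormone in liver and fat. It was at 306, 281 and 223 in the Wt group, against 320, 246 and 215 in the mutant group. The genotypes covered the same range, with the highest and the lowest value both in mutant mice. Its log2 fold change was -0.06 (SE 0.18, 95% interval -0.50 to 0.39, adjusted p = 0.861, limma), and the sign turned when Wt mouse 1 or mutant mouse 3 was left out (0.04 and 0.07).

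Set side by side, the receptor and the ligand gave a ratio that did not overlap between the genotypes, whereas each gene alone did. *Igf1* per kb over *Ghr* per kb was 0.265, 0.307 and 0.301 in the Wt group, against 0.192, 0.202 and 0.199 in the mutant group. Every mutant mouse was below every Wt mouse, with means of 0.291 ± 0.0224 and 0.198 ± 0.00473 (SD, n = 3), so there was about 0.679 times as much *Igf1* per *Ghr* in the mutant. An exact two-sided permutation test gave p = 0.1, the smallest that 3 mice against 3 allow. This ratio was chosen with the values known and is 1 of 4 ratios computed. The other 3 overlapped between genotypes.

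*Igf2* (ENSMUSG00000048583, chromosome 7, 142650766 to 142666816, minus strand) encodes the fetal ligand, an imprinted gene that is largely silenced after birth in mice. It was at 1.38, 1.46 and 1.30 in the Wt group, against 1.15, 1.21 and 0.749 in the mutant group, which rests on only 16 to 33 reads per mouse. Each mutant mouse was lower than each Wt mouse, but the log2 fold change of -0.30 (SE 0.18) did not pass the test (adjusted p = 0.343, limma). *Igf1* made up 99.1% ± 0.113 of the summed ligand level per kb in Wt and 99.3% ± 0.137 in mutant mice (SD, n = 3). The *Igf2* exons share 98 bases with the antisense gene *Igf2os* (mean 0.138), and the readthrough gene *Gm49394*, which covers 3596 of its exon bases, is listed at 0.

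*Igf1r* (ENSMUSG00000005533, chromosome 7, 67952827 to 68233668, plus strand), the signalling receptor of both ligands, was at 35.1, 38.9 and 45.4 in the Wt group, against 38.3, 39.5 and 40.2 in the mutant group. The mutant mice lay inside the Wt range, and the log2 fold change was -0.01 (SE 0.11, 95% interval -0.27 to 0.25, adjusted p = 0.969, limma). The sign of so small a value was not stable, and other tests and DESeq2's scaling gave 0.00 to 0.02.

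*Igfbp2* (ENSMUSG00000039323, chromosome 1, 72824503 to 72852474, plus strand) encodes a circulating and matrix-bound IGF binding protein. The 250 bases before its RefSeq start site (chr1:72824230-72824479, plus strand, GRCm38.p6) are shown because it is the one gene of the 10 that was called. Capitals mark the letters GGGCGG, the core of a GC box to which SP1-type factors bind.
Igfbp2: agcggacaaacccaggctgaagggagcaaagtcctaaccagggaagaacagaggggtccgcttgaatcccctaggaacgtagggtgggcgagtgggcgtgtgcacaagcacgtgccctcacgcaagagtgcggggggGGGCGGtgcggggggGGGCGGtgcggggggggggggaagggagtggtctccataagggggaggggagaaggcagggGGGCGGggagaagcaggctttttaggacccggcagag
The 3 matches begin -113, -98 and -37 bases from the start site. Such a match was present in 6 of the 15 RefSeq promoters of the 10 genes (250 bases before to 50 after a start, both strands) and in 35.7% of all 32851 mouse promoters of that length. The nuclear receptor half-site AGGTCA, which is not particular to THRA, was in 3 of the 15 (*Igf1*, *Igf2* and *Igf1r*) and in 16.3% of all promoters. The *Igf1* start site used lies 2846 bases inside the GENCODE gene, and its window lies within exons. TATAAA was in 3 of the 15 and in 13.6% of all promoters. The full cAMP response element TGACGTCA was in 0 of the 15 and in 1.79% of all.

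*Igfbp2* was at 0.126, 0.389 and 0.926 in Wt mice, or 3, 8 and 22 reads. It was at 5.87, 4.44 and 5.10 in mutant mice, or 112, 99 and 109 reads. Every mutant mouse was above every Wt mouse, while the Wt mice themselves differed by 7.36-fold, the widest spread within a genotype among the 10 genes. The means were 0.480 ± 0.408 and 5.14 ± 0.714 (SD, n = 3), a ratio of 10.7. The log2 fold change was 2.60 (SE 0.31, 95% interval 1.85 to 3.35, adjusted p = 0.00561, limma), on the log2(value + 0.5) scale, which understates the change of low genes. Without Wt mouse 3 the ratio of means was 19.96, and without Wt mouse 1 it was 7.82, so its size depends on which Wt mice are counted. The gene stayed below 0.05 with each mouse left out (adjusted p of 0.00829 to 0.0341, limma). It entered the test only because the mutant mice exceeded the low-value filter of 0.458. Of the 906 genes that entered in the same way, 502 (55.4%) were called higher, so a call on such a gene is common in these data.

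Most marker transcripts of mesothelium, the cell layer that lines body cavities, were also higher in the mutant. Of 8 mesothelial markers, 7 were higher in the mutant (adjusted p under 0.05, limma), against 5.5% of all genes tested. *Upk3b*, *Upk1b*, *Msln*, *Bnc1* and *Wt1*, like *Igfbp2*, reached the filter of 0.458 in all 3 mutant mice but not in all 3 Wt mice. Of all genes that entered in this way, 55.4% were called higher. The list summed to 8.32 to 34.0 in Wt and to 42.8 to 85.7 in mutant mice. Its marker *Upk3b* was at 0.0838, 0 and 1.09 in the Wt group, against 27.7, 11.4 and 16.6 in the mutant group. Wt mouse 3 was thus the highest Wt mouse for *Upk3b* and *Igfbp2*. It was also the highest for *Upk1b*, *Msln*, *Lrrn4* and *Gpm6a* (0.168, 0.715, 2.57 and 3.91), but not for the other markers. *Krt19*, the marker that was not called, was at 28.5, 2.72 and 2.94 in the Wt group and made up most of the highest Wt sum. In the same Wt mouse 1, the 6 epithelial markers summed to 75.8. That sum was 5.495 and 10.8 in the other Wt mice and 3.79 to 23.1 in mutant mice. The part of epithelial transcripts in the *Krt19* value was not tested. *Bnc1* was also highest in Wt mouse 1, where *Igfbp2* was lowest, and *Wt1* in Wt mouse 2. No marker was at 0 in all 6 mice. The part of mesothelial transcripts in the *Igfbp2* difference was not tested.

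*Igfbp5* (ENSMUSG00000026185, chromosome 1, 72857932 to 72874884, minus strand) lies next to *Igfbp2*, tail to tail with 5457 bases between them, and encodes a binding protein that associates with extracellular matrix. *Igfbp5* ranged from 836 to 1219 in Wt and from 1124 to 1370 in mutant mice, which overlapped. The log2 fold change was 0.24 (SE 0.19, adjusted p = 0.456, limma).

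*Igfbp3* (ENSMUSG00000020427, chromosome 11, 7206086 to 7213923, minus strand) encodes the main IGF carrier of serum. It was at 42.8, 66.8 and 83.8 in the Wt group, against 86.2, 119.9 and 101.0 in the mutant group. Each mutant mouse was higher than each Wt mouse, though mutant mouse 1 exceeded Wt mouse 3 only narrowly. The means were 64.5 ± 20.6 and 102 ± 16.9 (SD, n = 3), and the log2 fold change was 0.70 (SE 0.25, 95% interval 0.09 to 1.31). After adjustment over all genes it did not pass (adjusted p = 0.157, limma). Its neighbour *Igfbp1*, 3539 bases away and best known as a liver gene under the control of insulin, is listed at 0 in every mouse.

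**Figure D2:**
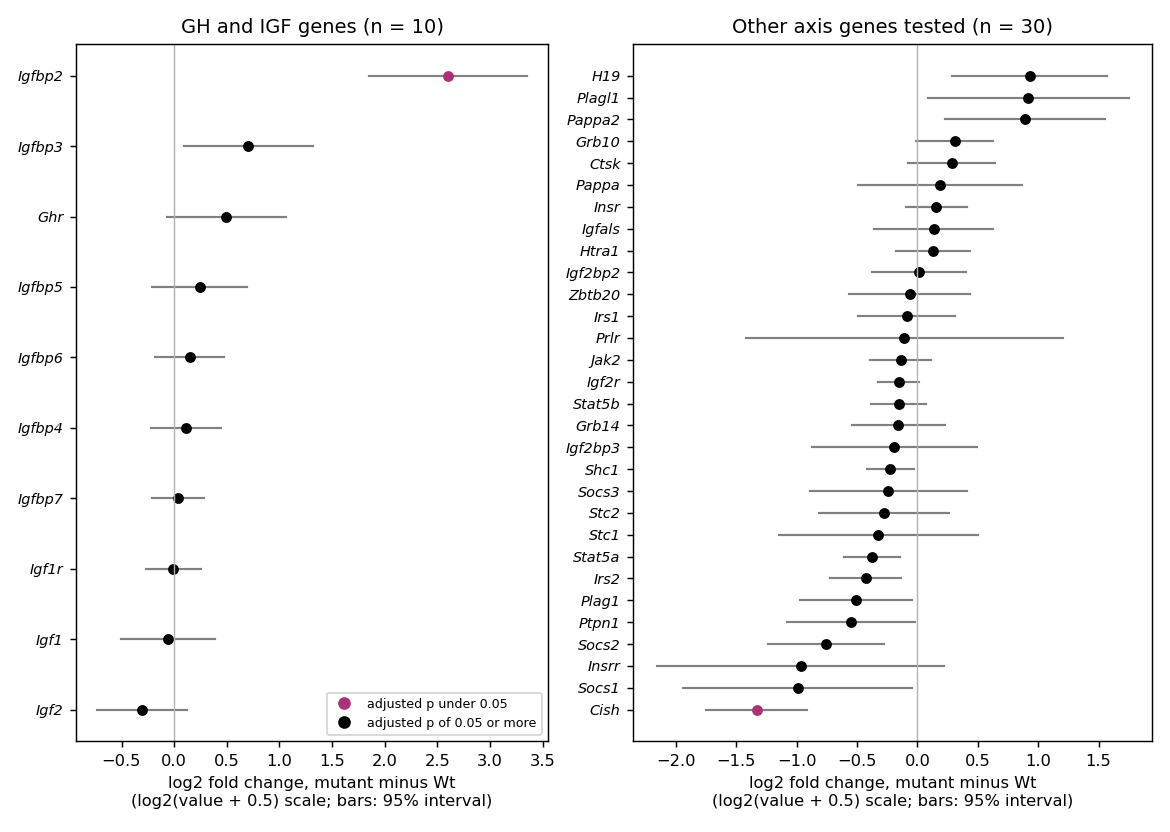
Log2 fold change, mutant minus Wt, on the log2(value + 0.5) scale, with 95% intervals, for the 10 growth hormone and IGF genes (left) and the 30 other genes of the axis that were tested (right). Purple points passed an adjusted p of 0.05: *Igfbp2* at 2.60 on the left and *Cish* at -1.33 on the right.

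The remaining binding proteins were abundant and even. *Igfbp4* (ENSMUSG00000017493, chromosome 11, 99041244 to 99054392, plus strand), an inhibitor of IGF action that proteases remove, ranged from 587 to 649 in Wt and from 567 to 755 in mutant mice (log2 fold change 0.11, SE 0.14, adjusted p = 0.635, limma). It lies 272237 bases from the mutated gene *Thra* on the same chromosome. *Igfbp6* (ENSMUSG00000023046, chromosome 15, 102144362 to 102149511, plus strand), which prefers IGF2, ranged from 118 to 142 and from 122 to 166 (log2 fold change 0.15, adjusted p = 0.529, limma). *Igfbp7* (ENSMUSG00000036256, chromosome 5, 77349240 to 77408041, minus strand), a vessel-associated protein that binds IGFs only weakly, ranged from 236 to 272 and from 233 to 271 (log2 fold change 0.04, adjusted p = 0.845, limma). All 3 overlapped between the genotypes. The sign for *Igfbp7* turned when Wt mouse 2 or mutant mouse 1 was left out, to 0.00 and -0.01. It shares 85 exon bases with *Polr2b* on the other strand, whose value was 0.333 times its own.

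*Igfbp4* to *Igfbp7* dominated the pool of binding proteins, and the share of each overlapped between the genotypes. Per kb, *Igfbp7* held 31.8% ± 3.44 of the summed level in Wt and 29.3% ± 1.24 in mutant mice (SD, n = 3), and *Igfbp5* 26.3% ± 3.77 and 27.8% ± 1.36. *Igfbp4* held 21.2% ± 0.0951 and 20.6% ± 0.840, and *Igfbp6* 17.5% ± 0.828 and 17.4% ± 1.004. The share of *Igfbp2* went from 0.0409% ± 0.0354 to 0.384% ± 0.0461, and so the gene with the largest fold change contributed least to the pool in both genotypes. The summed level of the binding proteins per kb was 24.0 ± 3.24 times that of the ligands in Wt and 27.8 ± 2.74 times in mutant mice (SD, n = 3), and the genotypes overlapped.

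**Figure D3:**
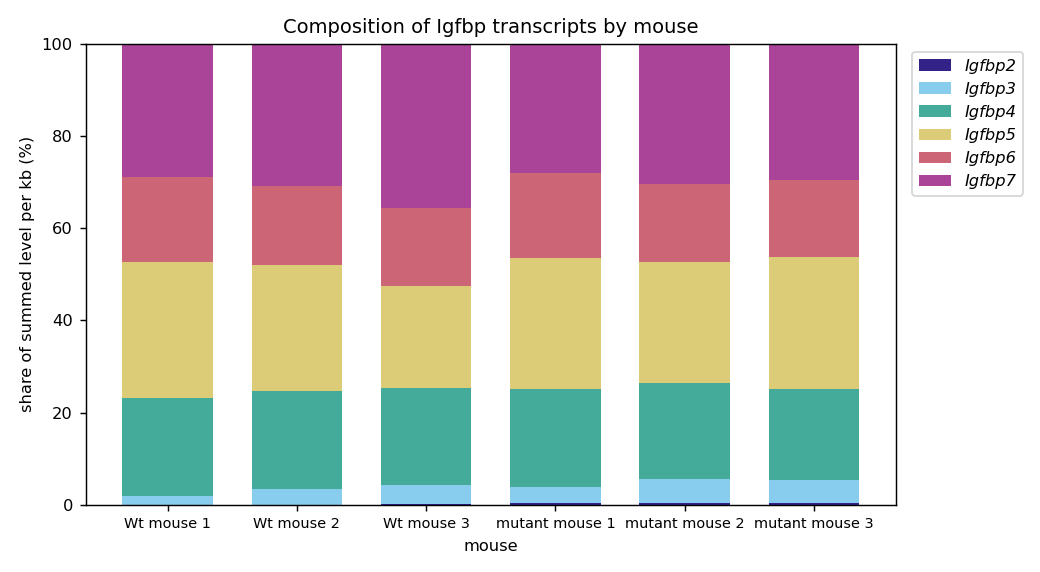
Share of each binding protein in the summed level per kb of exon (%), stacked to 100 for each of the 3 Wt and 3 mutant mice. *Igfbp4*, *Igfbp5*, *Igfbp6* and *Igfbp7* fill nearly all of every bar, and *Igfbp2* is the thin band at the bottom, at most 0.0794% in Wt and 0.333 to 0.423% in mutant mice.

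The mice within a genotype differed in a shared way. Mouse 1 had the highest value in both genotypes for 5 of the 10 genes, *Ghr*, *Igf1*, *Igfbp4*, *Igfbp5* and *Igfbp6*, and this held for 29.7% of all genes tested. The summed adipocyte markers were also highest in mouse 1 of both genotypes, at 35328 and 37761. *Igf1r* ran the other way and was lowest in mouse 1 of both. As a description over 6 mice, deviations of *Ghr* from its genotype mean correlated with those of *Igf1* at r = 0.976 and with those of *Igfbp3* at r = -0.837, where all genes share the libraries and their scaling. Mice with the same number are different animals.

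For each gene, the 2 tested genes with the most similar pattern over the 6 mice were listed by Pearson's r of log2(value + 0.5), as a description without a test. For *Igfbp2* they were *Mss51* (r = 0.996), a gene of skeletal muscle mitochondria, and *Lrrc61* (r = 0.996). *Mss51* was at 1.68, 2.09 and 7.78 in the Wt group, against 119, 85.8 and 116 in the mutant group, with no overlap. The 7 skeletal muscle markers summed to 10094 to 21611 in Wt and 16120 to 25137 in mutant mice, sums that overlapped and were carried mostly by *Myh4*, *Acta1* and *Ckm*. Of the 7, *Myh1*, *Myh2* and *Mb* were higher in all 3 mutant mice than in any Wt mouse, against 14.9% of all genes tested. Only *Myh1* was called higher, against 5.5% of all genes. Its means were 159 in Wt and 2259 in mutant mice (log2 fold change 4.31, adjusted p = 0.0208, limma). The other markers overlapped between the genotypes, with log2 fold changes of -0.12 (*Myh4*), 0.18 (*Ckm*), 0.70 (*Tnnt3*) and 0.72 (*Acta1*). The mean log2 level of the 7 markers did not overlap, at 8.84 to 10.08 in the Wt group, against 10.47 to 11.09 in the mutant group. Their part in the *Igfbp2* difference was not tested. For *Ghr* the genes were *Dynll2* (r = 0.999) and *Arhgap29* (r = 0.998), for *Igf1* *Trem2* (r = 0.996) and *Sult5a1* (r = 0.991), and for *Igf2* *Ccnq* (r = 0.980) and *Rprml* (r = 0.978). For *Igf1r* they were *Manba* (r = 0.999) and *Gm21926* (r = 0.990), and for *Igfbp3* *Cenpu* (r = 0.997) and *Siah3* (r = 0.991). *Igfbp4* ran closest to *Cd209f* (r = 0.996) and *Cyfip1* (r = 0.993), and *Igfbp5* to *Zfp931* (r = 0.999) and *Dbndd2* (r = 0.997). *Igfbp6* ran closest to *Nln* (r = 0.999) and *Mgl2* (r = 0.996), and *Igfbp7* to *Acp2* (r = 0.980) and *9330160F10Rik* (r = 0.977). These are the highest values among 16868 candidates, each over only 6 mice.

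A list of 36 other genes of the axis placed the 10 genes in their pathway, and 30 of the 36 could be tested. Of these, 1 was called, which was *Cish*, lower in the mutant. That is 3.33% of the list, against 8.11% of all genes tested. The difference was above 0 for 10 genes and below 0 for 20, against 7332 and 9536 of all genes tested. The median log2 fold change was -0.16 against -0.05 over all genes. At an unadjusted p under 0.05 there were 11 of the 30, against 24.2% of all genes, and 11 did not overlap between the genotypes, 4 higher and 7 lower, against 30.6% of all genes. Growth hormone itself was not tested, with 0 to 13 reads per mouse, and its releasing hormone receptor *Ghrhr* is listed at 0 in every mouse.

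Of the genes that act downstream of the growth hormone receptor, *Cish*, *Socs2* and *Stat5a* were lower in all 3 mutant mice than in any Wt mouse, and *Cish* passed the test. They were among 7 of the 30 tested axis genes that were lower without overlap, against 15.7% of all genes tested. *Igf1*, *Igfals*, *Jak2* and *Stat5b* overlapped between the genotypes. *Cish* (ENSMUSG00000032578, chromosome 9, 107296026 to 107302784, plus strand) encodes a STAT5-induced inhibitor of cytokine receptors. A stretch of 30 bases around its RefSeq start site is shown (chr9:107296655-107296684, plus strand, GRCm38.p6), because it holds the letters TTCNNNGAA, the STAT recognition site, which capitals mark.
Cish: agttTTCCTGGAAagTTCTTGGAAatctgt
Matches begin at the start site, counted as 1, and at base 12. No promoter of the 10 genes held these letters on either strand, and 8.30% of all mouse promoters did. A match is a description of the letters only, and the stretch lies 633 bases inside the GENCODE gene, within its exons.

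*Cish* was at 10.98, 11.2 and 14.8 in the Wt group, against 3.83, 4.76 and 5.15 in the mutant group. The genotypes did not overlap, and the mutant level was 0.372 times the Wt level. The log2 fold change was -1.33 (SE 0.17, 95% interval -1.75 to -0.91, adjusted p = 0.00744, limma), and it passed with each mouse left out (adjusted p of 0.0128 to 0.0369, limma). *Cish* is also expressed in lymphocytes, whose markers summed to 5.35, 394 and 602 in mutant mice 1, 2 and 3 and to 307 to 725 in Wt mice. Without mutant mouse 1 the *Cish* log2 fold change was -1.22 (adjusted p = 0.0128, limma). The part of lymphocyte transcripts in the *Cish* difference was not tested.

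*Socs2*, the feedback inhibitor that marks the growth hormone receptor for degradation, was at 14.96, 16.6 and 20.9 in the Wt group, against 7.81, 12.3 and 10.5 in the mutant group. Each mutant mouse was lower than each Wt mouse, but the log2 fold change of -0.76 (SE 0.20) did not pass the test (adjusted p = 0.0724, limma). *Stat5a*, one of the signal transducers, was at 86.9, 77.2 and 79.8 in the Wt group, against 69.6, 60.4 and 58.3 in the mutant group, and the log2 fold change was -0.37 (SE 0.10, adjusted p = 0.0693, limma). Again the genotypes did not overlap. *Stat5a* was called when mutant mouse 1 was left out (adjusted p = 0.0458, limma), while an offset for GC content brought it to -0.15 (adjusted p = 0.365, limma). It shares 72 exon bases with *Stat3* on the other strand, whose value was 2.59 times its own. The other transducers *Stat5b* (log2 fold change -0.16, adjusted p = 0.364) and *Jak2* (-0.14, adjusted p = 0.449) did not pass in limma, and their genotypes overlapped.

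**Figure D4:**
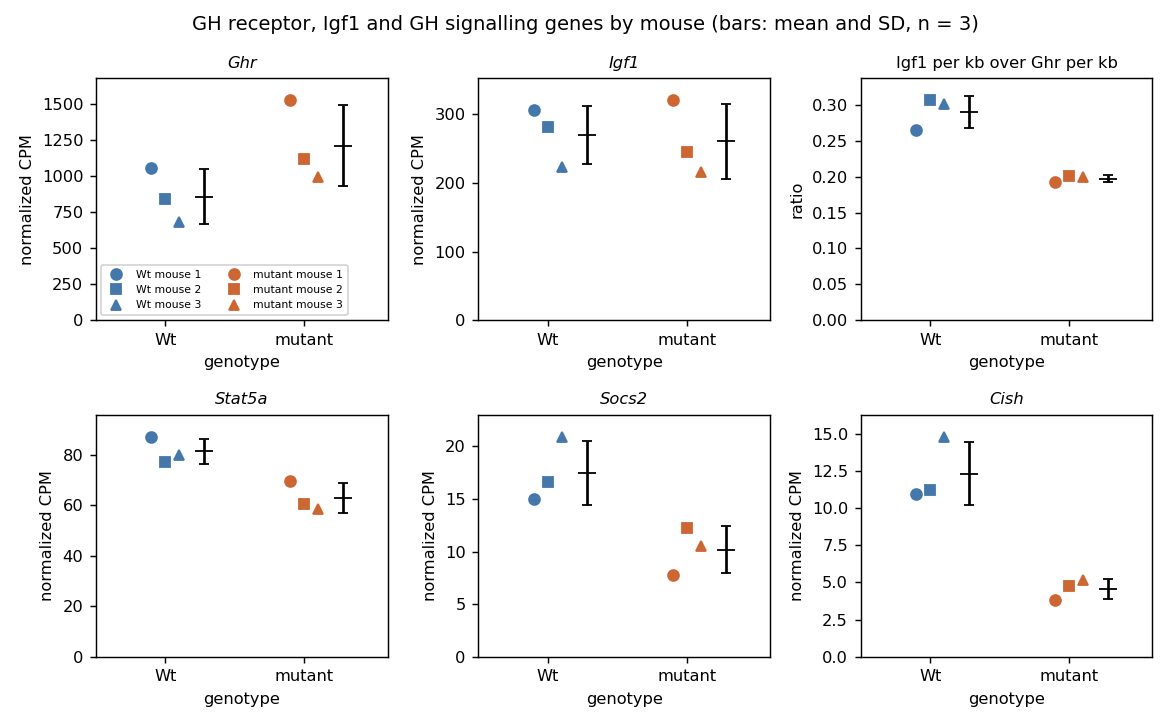
Values by mouse of *Ghr*, *Igf1*, *Stat5a*, *Socs2* and *Cish* (normalized CPM) and of the ratio of *Igf1* per kb to *Ghr* per kb, with axes from 0; symbols are mice 1, 2 and 3 and bars show the mean and SD of 3 mice. *Ghr* and *Igf1* overlap between Wt and mutant, while the ratio, *Stat5a*, *Socs2* and *Cish* are lower in all 3 mutant mice than in any Wt mouse. Of all genes tested, 15.7% were lower without overlap, a share that holds for single genes and not for the ratio.

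Among the receptors that share ligands with IGF1R, *Igf2r*, which clears IGF2, was at 147, 135 and 137 in the Wt group, against 126, 124 and 125 in the mutant group. The genotypes did not overlap, and the small log2 fold change of -0.15 (SE 0.07) did not pass the test (adjusted p = 0.245, limma). *Insr*, the insulin receptor, overlapped between them (log2 fold change 0.16, adjusted p = 0.396, limma). *Igfals*, the third member of the serum complex with IGF1 and IGFBP3, is a growth hormone target in liver and overlapped here at 34.5 to 47.9 in Wt and 33.2 to 54.1 in mutant mice (adjusted p = 0.707, limma). The protease *Pappa*, which cleaves IGFBP4, was near the detection floor at 0.251 to 0.983 over the 6 mice. Its inhibitor *Stc2* overlapped between the genotypes, and the log2 fold change was -0.27 (adjusted p = 0.477, limma). Without Wt mouse 1, which was at 49.6 against 25.97 to 31.2 in the other 5 mice, it was -0.02.

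*H19*, the imprinted noncoding RNA that lies 72622 bases from *Igf2* and shares its control region, differed from Wt in the opposite direction to *Igf2*, and neither difference passed the test. It was at 25.4, 40.4 and 19.2 in the Wt group, against 56.9, 43.9 and 55.7 in the mutant group. Each mutant mouse was higher than each Wt mouse, with Wt mouse 2 close to mutant mouse 2. The log2 fold change of 0.93 (SE 0.27) did not pass the test (adjusted p = 0.0934, limma), and it passed when Wt mouse 2 was left out (adjusted p = 0.0341, limma).

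**Figure D5:**
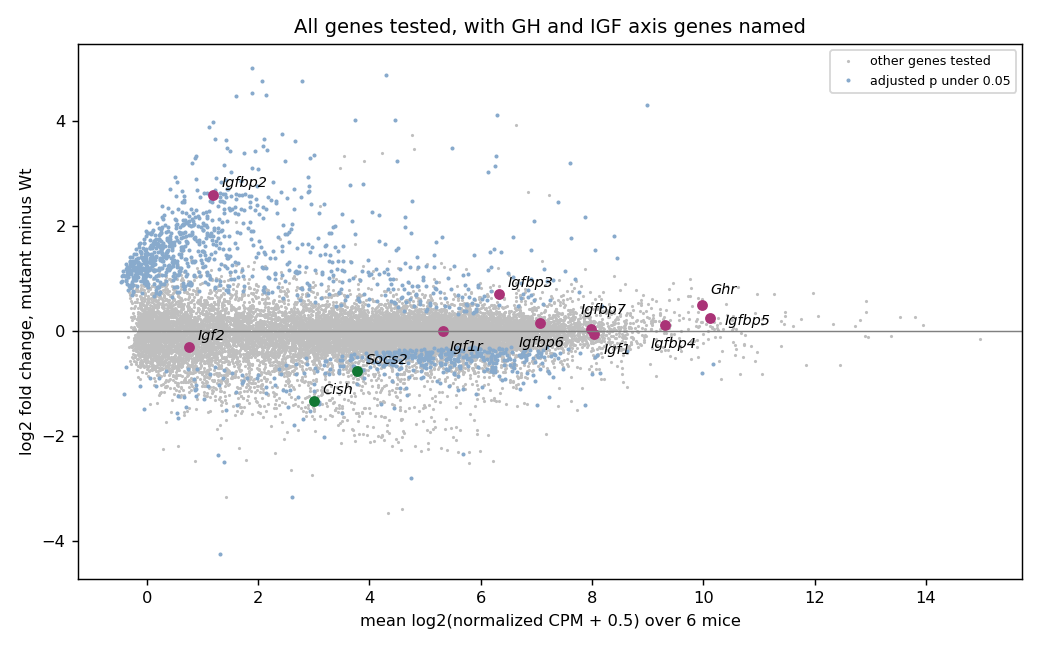
Log2 fold change (mutant minus Wt) against mean log2(normalized CPM + 0.5) over 6 mice for the 16868 genes tested; blue points passed an adjusted p of 0.05, purple points are the 10 growth hormone and IGF genes, green points *Cish* and *Socs2*. *Igfbp2* (2.60) lies among the many low-level genes called higher, and *Ghr*, *Igfbp4* and *Igfbp5*, at high normalized CPM, lie between 0.11 and 0.50.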

How the data were processed

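Total RNA of inguinal fat from 3 Wt and 3 mutant mice was sequenced as 1 library per mouse; the labels give genotype and mouse number. The authors deposited a normalized signal per gene and mouse: CPM, with counts scaled to library depth, times a further factor per library (0.962 to 1.109). The submitters' processing notes name Bowtie2 2.1.0, RSEM 1.2.15, edgeR and mm10, without their roles. Annotation and use of strand are not given in the sources used here. Every value was a whole multiple of 1 step per library (100% within 0.1 read), so the reads were recovered by division (19607423 to 24228381 per mouse). Replicates differed by more than sampling noise (a chi-square of 19.3 to 64.9 for each degree of freedom).

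The design had foreseen normalized values. Genotypes were compared with limma 3.58.1 (R 4.3.3, mean-variance trend) on log2(value + 0.5) over the 16868 genes that passed filterByExpr (edgeR 4.0.16) on the reads so obtained, with Benjamini-Hochberg adjustment over all of them and a threshold of 0.05. In simulated data for this comparison over 16868 genes, 89.0% of 91 genes changed by 2 and 48.6% of 109 changed by 1 (log2) were called. The simulated spread between mice depended on level alone and 200 genes were changed, so these rates may not hold for genes with a wider spread. Coordinates, exon length, GC content and overlaps are from GENCODE M21 on GRCm38 (55480 identifiers matched, 93 not), and promoters from RefSeq on GRCm38.p6, which held all 10 genes. Alternatives were other tests on the recovered reads (edgeR's quasi-likelihood test, DESeq2 1.42.0, limma-voom), scalings, filters, pseudocounts of 0.1 and 1, an FDR of 0.1, a GC offset in 20 bins, a replicate block and the omission of each mouse. Other steps ran in Python 3.11.15 with SciPy 1.17.1, and plots in Matplotlib 3.10.9.

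The 10 genes, the axis list and the marker lists were chosen with earlier results of these data known. Named genes are the 10 genes, other axis genes past the threshold, *Igf2r*, *Insr*, *Jak2*, *Stat5a*, *Stat5b*, *Socs2*, *Cish*, *Igfals*, *Pappa*, *Stc2* and *H19* for their roles, the 2 genes most alike to each of the 10, and *Thra*. *Gh*, *Ghrhr*, *Igfbp1*, the named mesothelial and muscle markers and genes that share exons with a named gene were named after their values were seen, as were the ratios and the motifs searched. Marker lists without a call were those of adipocytes, progenitors, endothelium, mural cells, lymphocytes, epithelium and Schwann cells. In these, 4 of 8 progenitor and fibroblast, 2 of 6 endothelial, 1 of 6 mural and 2 of 5 Schwann cell markers were higher in the mutant without overlap. The share of all genes tested was 14.9%. Lower without overlap were 1 of 6 mural and 1 of 6 epithelial markers, against 15.7%. In the macrophage list, 1 of 6 genes was called lower, against 2.61% of all genes tested. In that list 3 of 6 were lower without overlap, against 15.7%, and 1 of 6 was higher without overlap, against 14.9%.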

Additional observations from a re-analysis of the deposited data

How the results depend on the processing

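*Igfbp2* was called under every alternative that tested it, with a log2 fold change of 2.08 to 3.76, and *Cish* under all 18 (-1.41 to -1.20). With at least 10 reads required in every mouse, *Igfbp2* was not tested, 0 of the 9 genes left were called, and 598 genes were called in all. The count over all genes was 2118 with DESeq2, 2263 at an FDR of 0.1, and 554 to 1005 with a mouse left out. The share of calls that were higher was 67.8%, and it was 79.4% with scaling by library size only, 86.2% with the GC offset and 73.6 to 89.5% with a mouse left out, where lower calls were 61 (without Wt mouse 2 or Wt mouse 3) to 265, against 440. Of the other axis genes, 5 were called with DESeq2 and 5 at an FDR of 0.1 (*Stat5a*, *Socs2*, *Cish*, *Irs2* and *H19*), 3 with library size only (*Stat5a*, *Cish* and *Irs2*), and 1 to 2 with a mouse left out. The cause of these shifts was not tested. The GC offset moved *Igfbp6* to 0.41, *Igfbp7* to 0.26, *Stat5a* to -0.15, *Thra* to 0.45 and the median of the 10 genes from 0.13 to 0.25, with no new call among the 10.

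Whether mice with the same number share anything beyond it, such as a litter or a day, is not stated, and the labels give no pairing. Their deviations from the genotype means correlated at 0.69, 0.06 and 0.56, against -0.67 to 0.54 for mice with different numbers. With a replicate block, 4063 genes were called (42.6% of them higher), 3 of the 10 (*Ghr*, adjusted p = 0.0117, *Igfbp2*, and *Igfbp3*, adjusted p = 0.0328, limma) and 10 of the other axis genes. With the GC offset and the replicate block together there were 3253, 4 (*Igfbp6* added) and 8, and *Thra* was called (adjusted p = 0.00937, limma). Differences near 0 changed sign: *Igf1r* was 0.0017 with DESeq2, 0.015 with edgeR, 0.022 with limma-voom, 0.0089 with DESeq2's size factors and -0.093 to 0.090 with a mouse left out, as *Igf1* (-0.218 to 0.068), *Igfbp7* (-0.0058 to 0.104), *Igfals* (-0.016 to 0.332) and *Pappa* (-0.034 to 0.393) did with a mouse left out.

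With 3 mice per genotype, the intervals of *Ghr* and *Igfbp3* leave room for differences of 1 or more on the log2 scale. *Igf2* rests on 16 to 33 reads per mouse and *Igfbp2* on 3 to 22 in Wt mice. The floor of detection, set from reads, covers counting error only.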
